A study of Mus musculus with 3 samples.

Results

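Ribosomal protein genes encode the proteins of the cytosolic ribosome, the particle that translates messenger RNA. The large subunit proteins carry names starting with Rpl, and the small subunit proteins carry names starting with Rps. The stalk proteins Rplp0, Rplp1 and Rplp2 contact elongation factors, and Rpsa is a small subunit protein. The members were taken by symbol from the RefSeq gene table of the mouse assembly GRCm38.p6: autosomal protein-coding genes named Rpl or Rps with a number and an optional a, x or l, plus Rplp0, Rplp1, Rplp2 and Rpsa. S6 kinases and mitochondrial ribosomal proteins were not included. The rule found 77 genes, 47 of the large and 30 of the small subunit, among 20665 autosomal protein-coding genes. Rps3a1, Rpl36al, Rpl22l1 and Rpl7l1 have other endings and stayed outside.

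Chromatin immunoprecipitation followed by sequencing was used to map acetylation of histone H3 at lysine 27 (H3K27ac), which marks promoters and enhancers in use. The post-caerulein group was pancreatic epithelial cells grown as spheroids from wild-type C57BL/6J mice treated with caerulein, a cholecystokinin analogue that causes pancreatitis. The untreated group was spheroids of untreated mice of that strain. Both were cultured in medium with epidermal growth factor, hydrocortisone and cholera toxin, so both lists describe cultured cells. Each group has 1 H3K27ac library and no replicate, so no p-value is given, and a difference may be a difference between libraries. The age and number of the mice, and the time since caerulein, are not given in the labels used here.

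The post-caerulein list held 38793 peaks and the untreated list 37765, each called on 1 library, and the read depth behind them is unknown. All 8 ductal marker genes, Krt19, Sox9 and Epcam among them, were marked in both lists. Of the 8 acinar marker genes, 7 were marked in neither. The other, Bhlha15, was marked in both, with 1803 bp after caerulein and 1425 bp in untreated spheroids. The 3 mesenchymal, 3 endothelial and 4 endocrine genes were marked in neither. Of the 3 immune genes, Cd68 and Spi1 were marked in both lists, and Ptprc, the leukocyte antigen CD45, in the post-caerulein list alone. Their part in the results was not tested.

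Ribosomal proteins are needed in matched amounts, and their genes are transcribed strongly in growing cells. Many of their messages begin with a cytosine followed by a run of pyrimidines, the terminal oligopyrimidine (TOP) tract, through which the mTOR pathway controls their translation. Their promoters are known for a start site set in pyrimidines and for binding of ETS-family factors such as GABP.

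The promoters at the extremes of the width comparison are printed here, with Rpl19, which had the narrowest peaks at its gene ends, and paralogs whose own start carried no peak. Each runs from 100 bases before to 20 bases from the annotated start, 5′ to 3′ on the gene's strand, from RefSeq on GRCm38.p6. Capitals mark the base annotated as the start and, where that base is a pyrimidine, the unbroken pyrimidines that follow it. Those of Rpl7, Rpl23a and Rpl3 are named only.
Rpl38, chr11:114668480-114668599, plus strand: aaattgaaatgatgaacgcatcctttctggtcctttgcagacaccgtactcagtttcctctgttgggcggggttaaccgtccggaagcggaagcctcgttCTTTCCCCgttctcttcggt
Rpl23, chr11:97782420-97782539, minus strand: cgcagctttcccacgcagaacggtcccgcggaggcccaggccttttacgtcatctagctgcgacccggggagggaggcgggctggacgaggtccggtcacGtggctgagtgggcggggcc
Rpl7a, chr2:26910707-26910826, plus strand: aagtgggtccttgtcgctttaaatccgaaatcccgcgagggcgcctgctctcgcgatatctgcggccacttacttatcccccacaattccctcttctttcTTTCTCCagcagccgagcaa
Rps28, chr17:33824543-33824662, minus strand: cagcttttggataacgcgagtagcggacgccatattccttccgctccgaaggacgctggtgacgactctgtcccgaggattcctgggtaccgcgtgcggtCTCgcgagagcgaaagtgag
Rplp2, chr7:141447551-141447670, plus strand: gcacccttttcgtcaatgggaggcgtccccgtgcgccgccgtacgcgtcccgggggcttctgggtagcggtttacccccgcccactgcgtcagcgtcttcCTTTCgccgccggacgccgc
Rpl19, chr11:98026610-98026729, plus strand: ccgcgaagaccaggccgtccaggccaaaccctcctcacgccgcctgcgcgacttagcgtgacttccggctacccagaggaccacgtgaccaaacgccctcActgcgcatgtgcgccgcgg
Rpl3l, chr17:24727726-24727845, plus strand: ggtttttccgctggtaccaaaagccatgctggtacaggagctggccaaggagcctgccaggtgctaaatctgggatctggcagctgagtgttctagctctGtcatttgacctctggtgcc
Rpl39l, chr16:10170128-10170247, plus strand: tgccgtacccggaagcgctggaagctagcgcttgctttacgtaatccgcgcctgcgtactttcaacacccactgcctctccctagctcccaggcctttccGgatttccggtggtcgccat
Rpl38 and Rplp2 have a cytosine start with pyrimidines after it, as TOP messages do. Rps28 has a shorter run, and the pyrimidine tract of Rpl7a runs across its annotated start. Rpl23, Rpl19, Rpl3l and Rpl39l have a purine at the annotated base.

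H3K27ac was present at almost every ribosomal protein gene in both conditions. Genes with a peak no more than 1 kb from their left or right end are called marked. Both lists marked 74 of 77 members (96.1%, exact 95% interval 89.0 to 99.2), against 54.4% of all autosomal protein-coding genes. Intervals cover counting error over genes only. All 30 small subunit genes and 44 of 47 large subunit genes were marked in both. No member was marked in the post-caerulein list alone, where the share over all genes was 1.93%, and none in the untreated list alone, where it was 1.36%. For 0 of 77 the exact 95% interval ends at 4.68%, and a limit of 3 counts gives 3.90%, so neither count differs detectably from all genes. Mitochondrial ribosomal protein genes, which encode the separate ribosome of mitochondria, were marked in both lists at 76 of 78.

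The 3 members marked in neither list, where all genes stood at 42.3%, were Rpl10l, Rpl32l and Rpl39l. Rpl10l and Rpl39l are paralogs of Rpl10 and Rpl39 known for expression in testis. The nearest peak to Rpl39l lay 2739 bp away in the post-caerulein list and 1932 bp away in the untreated list. That to Rpl32l lay 10284 bp away after caerulein and 10307 bp away in untreated spheroids. Rpl10l was the most isolated, at 163859 bp after caerulein and 839166 bp in untreated spheroids. On the other side of the 1 kb limit, the member whose nearest peak lay farthest from a gene end was Rps27l, a paralog of Rps27 known as a p53 target. The distance was 341 bp after caerulein and 358 bp in untreated spheroids, and in both lists that peak covered its annotated start. For the call of marked or not, the limit therefore fell in a wide gap, and no member's nearest peak lay near it. Further peaks of some members, such as Rpl7a, did lie near it, and the widths below depend on that.

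The peaks themselves were matched. Of the 92 post-caerulein peaks at member genes, 91 overlapped an untreated peak by at least 1 bp (98.91%, 94.1 to 100.0). The share was 95.31% over peaks at the ends of all autosomal protein-coding genes and 82.38% over all autosomal peaks. Of the untreated peaks, 88 of 88 overlapped a post-caerulein peak (100%, 95.9 to 100), against 96.09% at all gene ends and 85.81% of all autosomal peaks. Both gene-end shares lay inside the members' intervals. The peak without a partner lay at the 3′ part of Rplp2, at chr7:141450090-141452745. It was 2656 bp wide and had a deposited score of 196.05, against a median of 2680.62 over the members' post-caerulein peaks. The score is the authors' value and serves only to rank peaks within a list.

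Most members had a single peak in each list. Exactly 1 peak in each list, overlapping, was found at 53 of 74 members (71.6%, 59.9 to 81.5), against 78.3% of all genes marked in both. The other 21 had several peaks in at least 1 list. The bases shared by the lists made up a median of 92.6% of the bases covered by either, with quartiles of 85.4 and 96.3%. Over all genes marked in both, the median was 89.8%, with quartiles of 79.9 and 94.5%. Rps18, a protein of the small subunit head, had the highest share, 99.5%, and Rpl7 the lowest, 24.6%.

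Ribosomal protein genes lay under wide peaks. The summed width of a gene's peaks had a median of 5154.5 bp after caerulein and 4944.5 bp in untreated spheroids over 74 members. Over all genes marked in both lists the medians were 3588.5 bp after caerulein and 3563.5 bp in untreated spheroids. Mitochondrial ribosomal protein genes had narrower peaks, with medians of 2573 bp after caerulein and 2735.5 bp in untreated spheroids. Translation factor and other TOP mRNA genes, a list of 22 chosen by name, had wider peaks, at 6206.5 bp after caerulein and 6680 bp in untreated spheroids. The list of ribosome assembly genes, 22 chosen by name, also holds genes for ribosomal RNA transcription such as Polr1a. Its 21 genes marked in both lists had medians of 3518 bp after caerulein and 4228 bp in untreated spheroids. Of the peaks at members, 34 of 92 after caerulein (37.0%) and 55 of 88 in untreated spheroids (62.5%) had a score of at least 3100. Within the same lists, the shares over peaks at all gene ends were 29.0% after caerulein and 42.4% in untreated spheroids.

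**Figure D1:**
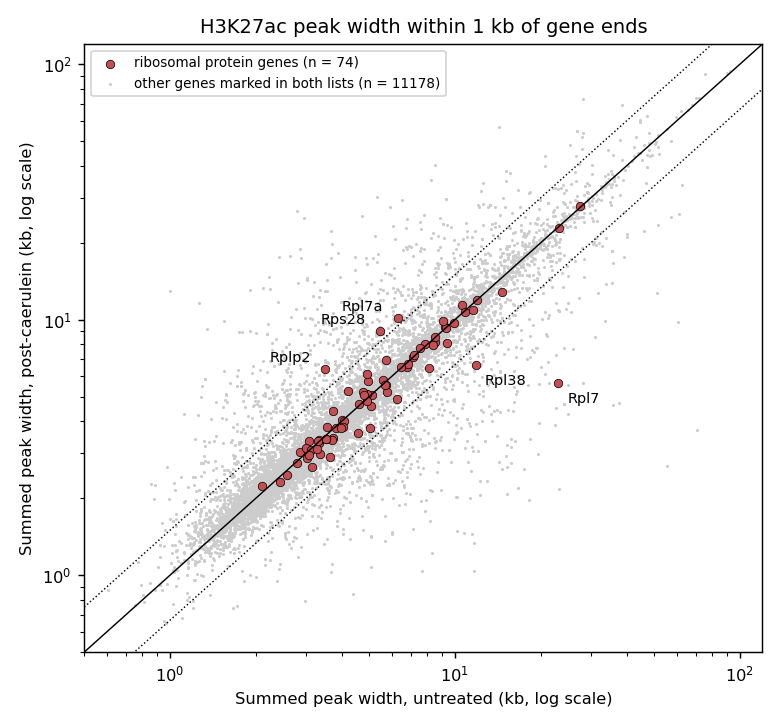
Summed H3K27ac peak width within 1 kb of the gene ends, in kb on log axes, in the post-caerulein list (vertical) and the untreated list (horizontal), 1 library each; red points are the 74 ribosomal protein genes, grey points the other genes marked in both lists, the solid line equal width and the dotted lines a 1.5-fold difference. Only 5 members lie on or outside the dotted lines, and Rpl7, at 5669 bp after caerulein and 23015 bp in untreated spheroids, lies farthest from it.

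The widths differed little between the lists. The log2 ratio of post-caerulein over untreated summed width had a median of -0.0145 over 74 members, with quartiles of -0.073 and 0.048. Its median size, regardless of sign, was 0.068 on the log2 scale, against 0.12 over all 11252 genes marked in both lists and 0.10 over the mitochondrial ribosomal protein genes. The middle 50% of ratios spanned 0.12 for members and 0.23 for all genes. The wider sum exceeded the narrower by less than 25% at 65 of 74 members (87.8%, 78.2 to 94.3), against 78.0% of all genes, a share just below that interval, and 86.8% of the mitochondrial ribosomal protein genes, a share inside it. The peaks were wider after caerulein at 31 members (41.9%, 30.5 to 53.9), where all genes stood at 52.6%. They were wider in untreated spheroids at 43 (58.1%, 46.1 to 69.5), where all genes stood at 47.3%. Across the 74 members, log2 widths in the lists had a Pearson r of 0.91, and across all 11252 genes it was 0.90; neighbouring genes share peaks, and both are descriptions.

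The closest ratios were found in the small subunit. Rps24, mutated in some Diamond-Blackfan anaemia, had 9308 bp after caerulein and 9311 bp in untreated spheroids. Rps21 had 5087 bp after caerulein and 5095 bp in untreated spheroids, and Rps18 had 7158 bp after caerulein and 7140 bp in untreated spheroids. These 3 differed by at most 18 bp. Small subunit genes had a median ratio size of 0.050 and large subunit genes one of 0.078 on the log2 scale. A difference under 25% was found at 27 of 30 small subunit genes and at 38 of 44 large subunit genes.

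**Figure D2:**
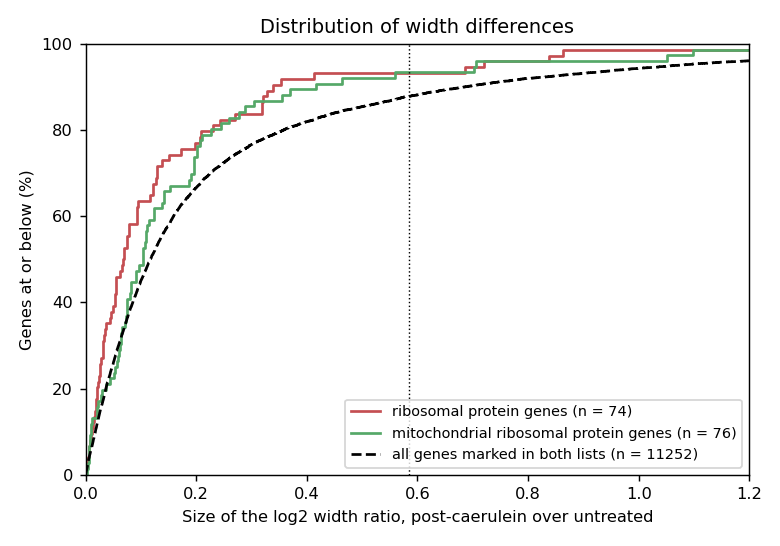
Cumulative share of genes, in percent, by the size of the log2 ratio of post-caerulein over untreated summed peak width, for ribosomal protein genes, mitochondrial ribosomal protein genes and all autosomal protein-coding genes marked in both lists; the dotted line marks 1.5-fold, and larger ratios, Rpl7 among them, run past the right edge. The curve of the 74 members reaches 50% at 0.068, that of the mitochondrial list at 0.10 and that of all genes at 0.12, and the curves of both ribosomal lists meet at larger sizes.

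Few members passed a 1.5-fold difference. The peaks were at least 1.5-fold wider after caerulein at 3 members (4.05%, 0.844 to 11.4), against 6.68% of all genes: Rplp2, Rps28 and Rpl7a. They were at least 1.5-fold wider in untreated spheroids at 2 members (2.70%, 0.329 to 9.42), against 5.47% of all genes: Rpl7 and Rpl38. Both background shares lie inside these intervals, so the counts do not set the members apart. Among the comparison lists, no translation factor or TOP mRNA gene was that much wider after caerulein, and 1, Eif3k, was in untreated spheroids, with 9809 bp after caerulein and 60597 bp in untreated spheroids. Of 76 marked mitochondrial ribosomal protein genes, 3 were wider after caerulein and 2 in untreated spheroids. Of 21 marked ribosome assembly genes, 3 were wider after caerulein and 2 in untreated spheroids.

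Rpl7, a large subunit protein, had the largest difference. Its peaks were 5669 bp wide after caerulein and 23015 bp in untreated spheroids, a log2 ratio of -2.02. The post-caerulein peak was chr1:16102448-16108116 and the untreated peak chr1:16101658-16124672. Both ran into Rdh10, a retinol dehydrogenase gene, and the untreated peak ran farther. Both peaks had a score of 3100, a value that many peaks of each list hold, so it does not show equal strength. The wider one also covered 2 further post-caerulein peaks of 1701 and 2235 bp with scores of 145.77 and 258.94. Counting those as well, the widths were 9605 bp after caerulein and 23015 bp in untreated spheroids, a log2 ratio of -1.26.

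Rpl38, a large subunit protein known in mice for its part in translating Hox messages, depended on how peaks were joined. Within 1 kb it had 6631 bp after caerulein and 11845 bp in untreated spheroids, a log2 ratio of -0.84. After caerulein, 1 peak of 6631 bp covered the annotated start and the 3′ end of the gene, and a second, of 6640 bp, lay beyond the limit towards Ttyh2. In untreated spheroids, peaks of 3942 and 7903 bp divided the same stretch elsewhere. With all overlapping peaks counted, the log2 ratio was 0.16, and for the peak over the start alone it was 0.75.

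Rps28, a small subunit protein, shares its peaks with Ndufa7, a subunit of mitochondrial complex I. Its peaks were 9028 bp wide after caerulein and 5477 bp in untreated spheroids, a log2 ratio of 0.72. After caerulein, 1 peak, chr17:33822068-33831095, spanned the region that in untreated spheroids was divided between that 5477 bp peak and a second of 4068 bp beyond the limit. With both counted, the log2 ratio was -0.080.

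Rpl7a, a large subunit protein, lies beside Surf1, a factor for assembly of cytochrome c oxidase. It had 10133 bp after caerulein and 6302 bp in untreated spheroids, a log2 ratio of 0.69. The second post-caerulein peak, of 4063 bp, overlapped an untreated peak of 3854 bp that began just over 1 kb from the gene end. With that one counted, the log2 ratio was -0.0033.

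Rplp2, a stalk protein, had 6387 bp after caerulein and 3511 bp in untreated spheroids, a log2 ratio of 0.86. The peak over its start was 3731 bp wide after caerulein and 3511 bp in untreated spheroids, and the remaining 2656 bp were the low-scored peak without a partner. With every overlapping peak counted in this way, 1 member was at least 1.5-fold wider after caerulein (Rplp2; all genes 3.31%) and 1 in untreated spheroids (Rpl7; all genes 2.91%). Counting chains of overlapping peaks was chosen after the values had been seen.

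Other members towards the ends of the order differed less. Rpl23, a large subunit protein that can bind Mdm2, had 3774 bp after caerulein and 5026 bp in untreated spheroids, a log2 ratio of -0.41. Rpl37 had 4910 bp after caerulein and 6269 bp in untreated spheroids, a log2 ratio of -0.35. On the other side, Rpl27a and Rpl31 of the large subunit each had a log2 ratio of 0.32. Rpl27a had 6120 bp after caerulein and 4901 bp in untreated spheroids, and its second post-caerulein peak had a score of 51.73, close to the lowest in the list, 50.01. Without that peak, as at the annotated start alone, the log2 ratio of Rpl27a was -0.10. Rpl31 had 5275 bp after caerulein and 4227 bp in untreated spheroids.

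**Figure D3:**
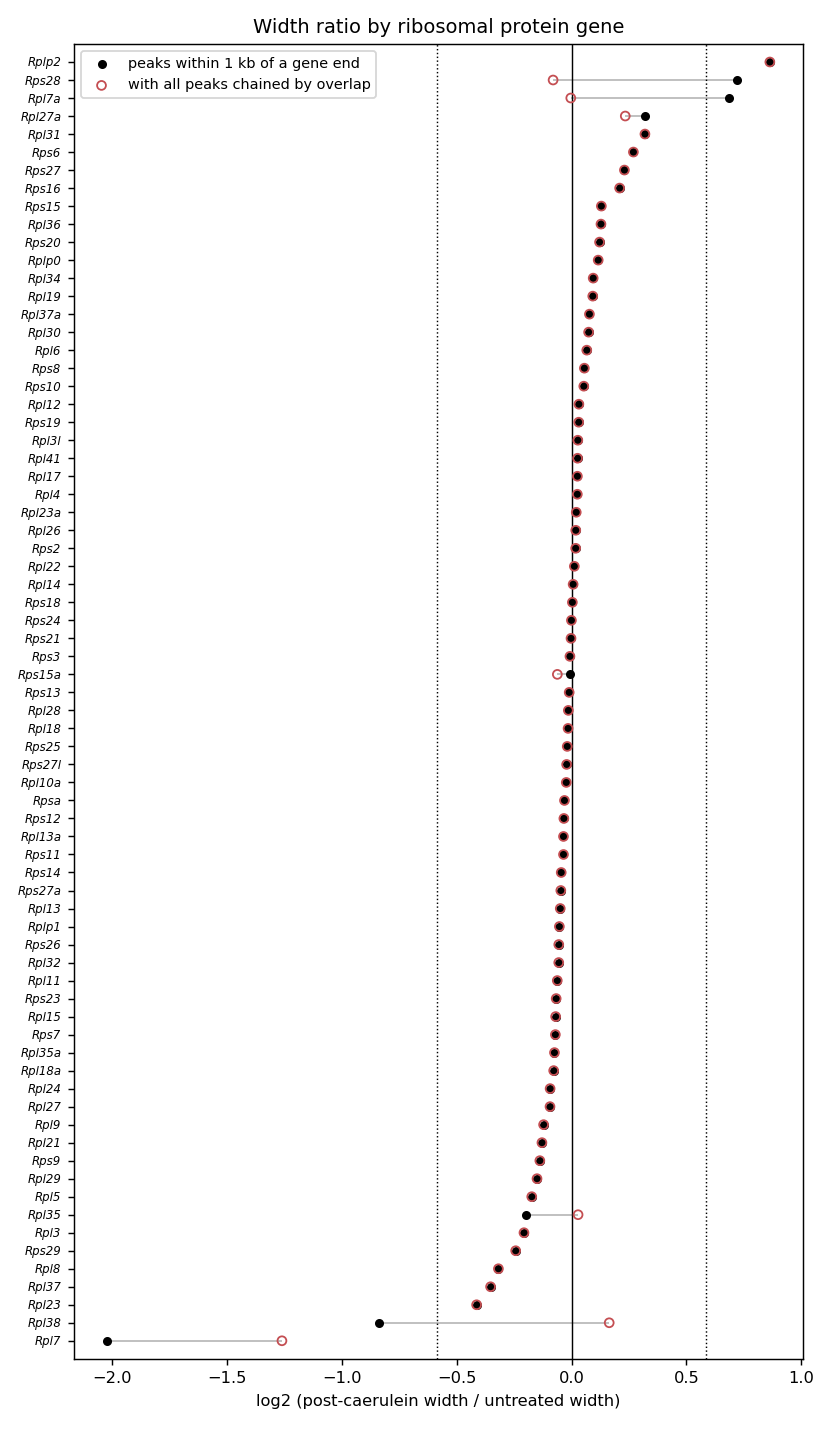
Log2 ratio of post-caerulein over untreated summed peak width for members marked in both lists, in order, leaving out those not reported by name; filled points use peaks within 1 kb of a gene end, open points add every peak joined by overlap, and dotted lines mark 1.5-fold. By the filled points, 3 lie at or above a 1.5-fold difference towards post-caerulein spheroids and 2 towards untreated spheroids, with Rplp2 at 0.86 and Rpl7 at -2.02 at the ends.

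The stalk genes and Rpsa were otherwise close. Rplp0, the scaffold of the stalk, had 11442 bp in 2 peaks after caerulein and 10557 bp in 3 peaks in untreated spheroids, a log2 ratio of 0.12. Rplp1, the partner of Rplp2, had 2966 bp after caerulein and 3077 bp in untreated spheroids, a log2 ratio of -0.053. Rpsa, also known as the laminin receptor, had 3752 bp after caerulein and 3833 bp in untreated spheroids, a log2 ratio of -0.031.

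Among members with several peaks, the bases shared ran lowest at Rpl38, 46.1%, and then at Rplp2, 54.5%, and Rpl7a, 57.5%. Rpl27a followed with 70.5%. Rpl29 shared 75.5%, with 5200 bp after caerulein and 5771 bp in untreated spheroids. Rpl14 at 77.8%, Rpl3 at 78.1%, Rps6 at 79.6% and Rpl35 at 82.0% were also among the 10 lowest. Rpl3 lies at the peptidyl transferase centre, and Rps6 is the substrate of the S6 kinases. Rps6 had 6924 bp after caerulein and 5745 bp in untreated spheroids.

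By the mean of both lists, the widest members lay in peaks that took in several genes. Rpl23a had 27883 bp after caerulein and 27489 bp in untreated spheroids, in a peak shared with Traf4, Nek8, Tlcd1 and Fam222b. Rpl18 had 22953 bp after caerulein and 23195 bp in untreated spheroids, shared with Dbp, Sphk2 and others. By that mean Rpl7, wide in untreated spheroids alone, and Rpl35 came next, and Rpl35 had 12780 bp after caerulein and 14653 bp in untreated spheroids, or 14944 bp after caerulein and 14653 bp in untreated spheroids with a further overlapping peak counted. In each list, 39 members shared a peak with another protein-coding gene, so widths of these members are not of the ribosomal protein gene alone.

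The narrowest by that mean were Rpl19, Rps23, Rps26 and Rps27l. Rps23, a protein of the decoding centre, had 2316 bp after caerulein and 2426 bp in untreated spheroids. Rps26 had 2468 bp after caerulein and 2565 bp in untreated spheroids, and Rps27l had 2747 bp after caerulein and 2788 bp in untreated spheroids. Rpl19 had 2242 bp after caerulein and 2103 bp in untreated spheroids, in a peak shared with Cacnb1, a calcium channel subunit. Its annotated start, at the promoter printed above, lay over 1 kb from either end in the gene table, under a peak of 3066 bp after caerulein and 3989 bp in untreated spheroids.

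Positions of the peaks relative to the gene were compared where the start is annotated. A start was available for 57 members, and a peak covered it in both lists at 52 (91.2%), against 52.3% of all genes with a start. The 5 uncovered starts were those of Rpl10l, Rpl32l, Rpl39l, Rpl3l and Rpl22. Rpl22, a large subunit protein, missed by 111 bp after caerulein and 174 bp in untreated spheroids. Rpl3l, a paralog of Rpl3 known for expression in striated muscle, had a peak of 3360 bp after caerulein and 3297 bp in untreated spheroids at its 3′ end, where Msrb1 begins. Its own start lay 2475 bp from the nearest peak after caerulein and 2550 bp in untreated spheroids, so its mark lay at the other end of the gene.

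The peak over the start had a median width of 4394.5 bp after caerulein and 4440.5 bp in untreated spheroids over the 52 members. Over all 8611 genes with a start covered in both, the medians were 3197 bp after caerulein and 3174 bp in untreated spheroids. The median size of its log2 ratio was 0.070 for members and 0.11 for all genes. It was at least 1.5-fold wider after caerulein at 4 of the 52 members (all genes 4.90%). These were Rpl38, Rps28, Rps16 and Rplp0, with log2 ratios of 0.75, 0.72, 0.69 and 0.65. In untreated spheroids it was so at 1 of the 52 members (all genes 3.90%). No interval was computed for these counts, so they do not set the members apart. That 1 member was Rpl24, with 3074 bp after caerulein and 11598 bp in untreated spheroids, a log2 ratio of -1.92. Rpl24 had a second post-caerulein peak close by, and its summed widths were 10872 bp after caerulein and 11598 bp in untreated spheroids.

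Peak edges lay close together. Over the 53 members with 1 peak in each list, an edge moved by a median of 95.5 bp between lists, against 118.0 bp over all such genes. Of 106 edges, 94 lay within 500 bp (88.7%), against 85.7% for all genes. With a start annotated, 37 of these members could be oriented. The peak covered the start at 34 of them in each list (91.9%), against 90.6% of all such genes after caerulein and 90.5% in untreated spheroids. The peaks of Rpl3l, Rpl19 and Rpl22 lay off the start, and the values below include them. The peak reached a median of 1176 bp upstream of the start after caerulein and 1104 bp in untreated spheroids, and 2597 bp downstream after caerulein and 2925 bp in untreated spheroids. Over all genes the downstream reach was 1644 bp after caerulein and 1624 bp in untreated spheroids. The peak reached farther downstream than upstream at 32 of 37 members after caerulein (86.5%) and at 34 in untreated spheroids (91.9%). For all genes those shares were 67.7% after caerulein and 68.4% in untreated spheroids. The downstream edge lay farther out after caerulein at 12 of 37 members (32.4%, 18 to 49.8) and farther out in untreated spheroids at 25 (67.6%, 50.2 to 82.0). All genes were divided 51.4% after caerulein and 48.3% in untreated spheroids, and the median difference for members was -37 bp, post-caerulein minus untreated. The upstream edge lay farther out after caerulein at 23 of 37 members (62.2%, 44.8 to 77.5) and in untreated spheroids at 14 (37.8%, 22.5 to 55.2), with a median difference of 28 bp. All genes were divided 52.7% after caerulein and 47.0% in untreated spheroids upstream.

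**Figure D4:**
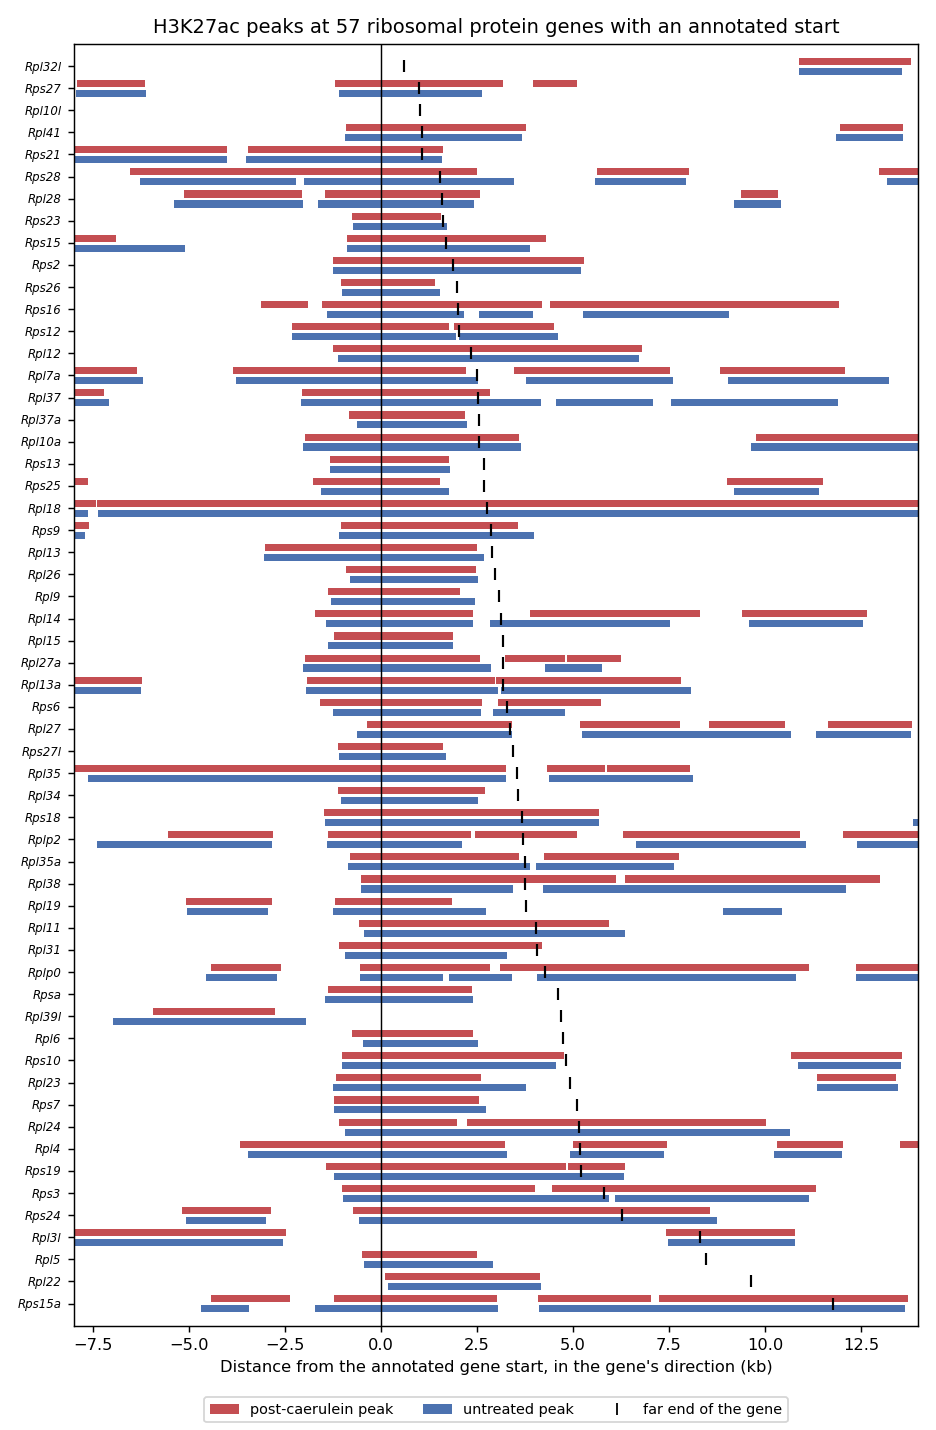
Extent of the H3K27ac peaks around the annotated start of the 57 ribosomal protein genes that have one, in kb from the start in the direction of transcription, with post-caerulein peaks (red) above untreated peaks (blue) and a tick at the far end of the gene. Genes run from the shortest to the longest distance between the annotated start and that far end. The edges of the peak over the start lie close together at most members, and Rpl38 and Rps28 show the same stretch divided differently between the lists.

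These genes are short, and 1 peak often covered a whole gene. The median gene length was 3183 bp for members and 17491 bp for all genes. A single peak lay over both gene ends at 26 of 74 members after caerulein (35.1%, 24.4 to 47.1), against 5.11% of all genes, and at 34 in untreated spheroids (45.9%, 34.3 to 57.9), against 5.09%. Among genes up to 10 kb long the share was 17.4% in each list, and among mitochondrial ribosomal protein genes it was 10.5% after caerulein and 6.58% in untreated spheroids. Neither background is matched in length. Of genes marked in both lists, members had a median length of 3206.5 bp. That of genes up to 10 kb was 5176 bp, and that of mitochondrial ribosomal protein genes 7690.5 bp. The part of gene length in these shares, and in those by list below, was not tested. One peak over both ends in the post-caerulein list alone was found at 1 member, Rpl31 (1.35%, 0.0342 to 7.30; all genes 0.675%). In the untreated list alone it was found at 9 members (12.2%, 5.71 to 21.8; all genes 0.658%). Among them were Rpl3, Rpl7a, Rpl8, Rpl24, Rpl35a, Rps3, Rps19 and Rps23. Among genes up to 10 kb the share was 2.09% in each direction, and the 76 mitochondrial ribosomal protein genes had 3 after caerulein and 0 in untreated spheroids.

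The distances behind these differences were mostly short. In the post-caerulein list the peak stopped short of a gene end by 293 bp at Rpl7a, 138 bp at Rpl35a, 137 bp at Rpl8 and 51 bp at Rps23. At Rpl3 the left gene end fell in a gap of 1703 bp between 2 post-caerulein peaks. The nearer of these lay outside the gene, 353 bp from that end, and had a score of 287.52. At Rpl24, Rps3 and Rps19, the post-caerulein list had separate peaks over the ends. The gap between them was 50 bp at Rps19, a gene of Diamond-Blackfan anaemia, 256 bp at Rpl24 and 430 bp at Rps3. Rpl31 missed in the untreated list by 772 bp. When peaks of a list within 1 kb of each other were merged, 1 peak lay over both ends at 37 members after caerulein and at 40 in untreated spheroids.

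Promoter letters were counted in the 57 members with a sequence from RefSeq, each window running from 250 bases before to 50 bases after the start, on both strands. The ETS motif, CCGGAAG, was in 23 members (40.4%), against 12.3% of all 16457 promoters, 19.5% of those marked in both lists and 34.8% of mitochondrial ribosomal protein promoters. Within the stretches printed above, Rpl38, Rpl19 and Rpl39l have it. A C at the start followed by at least 4 pyrimidines was in 13 members (22.8%), 2.17% of all promoters, 2.21% of those marked in both lists and 0 of 69 mitochondrial ribosomal protein promoters. Asking only for a C and at least 5 pyrimidines within 10 bases of the start, a form chosen after the values had been seen, found 30 members (52.6%), 19.6% of all promoters, 19.2% of those marked in both lists and 16 of 69 mitochondrial ribosomal protein promoters (23.2%).

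For some other motifs, whether members stood higher or lower depended on the background. The TATA box letters, TATAAA, were in 5 members (8.77%), 13.5% of all promoters and 7.0% of those marked in both lists. The SP1 motif, GGGCGG, was in 32 members (56.1%), 47.3% of all promoters and 65.4% of those marked in both lists. The E-box, CACGTG, was in 5 members (8.77%), 7.97% of all promoters and 10.2% of those marked in both lists. These 3 lay between the backgrounds. The YY1 motif, AAGATGGC, was in 5 members (8.77%), 3.21% of all promoters, 4.78% of those marked in both lists and 17.4% of mitochondrial ribosomal protein promoters. The CRE, TGACGTCA, was in 5 members (8.77%), 2.40% of all promoters, 3.55% of those marked in both lists and 2.90% of mitochondrial ribosomal protein promoters. Both shares were above those of all promoters and of those marked in both lists. They rest on 5 members each with no interval computed, so they do not set the members apart. CCAAT was in 17 members (29.8%), 39.1% of all promoters and 38.8% of those marked in both lists. NRF1, GCATGCGC, was in 2 members (3.51%), 3.66% of all promoters and 5.82% of those marked in both lists. A match describes the letters and not binding.

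**Figure D5:**
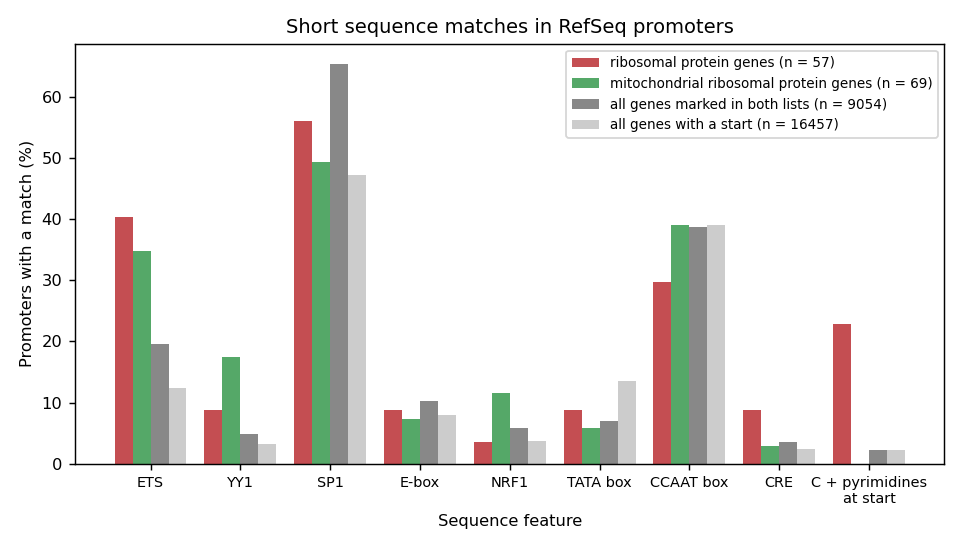
Share of promoters, in percent, holding each motif among 57 ribosomal protein genes, 69 mitochondrial ribosomal protein genes, all genes marked in both lists and all genes with a start, as bars from 0. The ETS letters stand at 40.4% in ribosomal protein promoters and 12.3% in all promoters, and the cytosine start with pyrimidines at 22.8% and 2.17%.

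Ribosomal protein genes have many processed copies in the mouse genome, and short reads from identical copies can be assigned to either. Of 276 pseudogenes named after a ribosomal protein gene, 22 were marked in both lists (7.97%, 5.06 to 11.8), against 5.93% of all 9496 pseudogenes. In the post-caerulein list alone 7 were marked (2.54%, all pseudogenes 0.916%), and in the untreated list alone 5 (1.81%, all pseudogenes 1.15%). How reads with several matches were treated is unstated in the labels.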

How the data were processed

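H3K27ac peak lists of 2 mouse libraries, 1 post-caerulein and 1 untreated, were used as deposited; an input library was not used here. Per the submitters' processing notes, the authors used Trimmomatic 0.38, Bowtie2 2.2.6, SAMtools and MACS 1.4 with builds GRCm38 and mm10; its options and control are unstated there. The deposited lists give the start and end of every peak, from which widths were taken, with a score that no header defines and that ranks peaks within a list only. The lists hold no read counts, so depth is unknown and limits what the absence of a peak shows.

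Genes, starts and promoters came from RefSeq tables of GRCm38.p6. Peaks within 1 kb of either gene end were assigned to a gene, with an overlap of at least 1 bp counted as a match. Widths were summed per list and compared as log2 of post-caerulein over untreated, with a fold of 1.5 and no pseudocount. Shares carry exact (Clopper-Pearson) 95% intervals. No test was run, since each group has 1 library, and shares over all genes are given beside those of members.

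The members and lists were chosen with earlier results of these data known. Genes named are those marked in 1 list or neither, the 5 with the largest and smallest width ratio, the 4 widest and narrowest, up to 10 without a single match, the stalk genes, Rpsa and the paralogs; others with a special position were chosen after their values were seen. Some members that the rule names are not reported here by name, and counts include them. Alternatives varied peaks, windows, merging, overlap, fold and the reading of the rule. The calculation was tested on simulated data, with Python 3.11.15, numpy 2.4.6, pandas 2.3.3, scipy 1.17.1 and matplotlib 3.10.9.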

Additional observations from a re-analysis of the deposited data

How the results depend on the processing

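Of 86 recomputed summary values, 73 stayed within 1.5 times or within their interval. Marking in both lists, the median ratio and the median shared share were among these under every alternative run. For marking, a limit of 1.5 times is loose. At the annotated start alone it was 53 of the 57 members with a start, a smaller set than the 77 behind the count of 74. The count with a single matched peak, 53, ran from 39 with a 5 kb window to 67 with peaks merged. The count of members at least 1.5-fold wider after caerulein, 3, was 1 with a 5 kb window, 6 with peaks within 1 kb merged, 1 with overlapping peaks chained and 0 at a fold of 2. The count wider in untreated spheroids, 2, was 4 with peaks at or above their list's median score, 5 where a peak had to cover a gene end, 1 for the annotated start alone, 4 for the widest peak, 1 chained, 6 at a difference of 25% and 1 at a fold of 2. The median width was 6206 bp after caerulein and 6397 bp in untreated spheroids with a 5 kb window. Over 10 members, 52 of 77 values held, 13 moved across the fold or across 0, and 12 reversed from past the fold. Rpl38 was 0.16 with a 5 kb window, 0.75 at the start alone, 0.097 merged and 0.16 chained. Rps28 was -0.060 with a 5 kb window, -0.11 merged and -0.080 chained. Rpl7a was -0.054 where a peak covered a gene end, at the start alone and for the widest peak, and -0.0033 with a 5 kb window or chained. Rpl27a was -0.10 with peaks at or above the median score, with equal numbers of peaks, where a peak covered a gene end, at the start alone and for the widest peak, and 0.75 merged. Rplp2 was 0.088 for its widest peak, and Rpl37 was -1.51 with peaks merged. Chaining was chosen after seeing the data. The causes were not tested.

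No paired analysis was possible because only 1 library per group was analysed, and leaving one out would end the comparison. Differences between the groups cannot be told apart from differences between the 2 libraries.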
